A study of Mus musculus with 9 samples.

Results

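The TGF-beta and BMP pathway was followed here through 45 listed genes of the 27179 genes in the deposited table. The genes were listed by symbol, but with earlier results of these data known, so shares of called members are a description only. All 45 were found, and 42 passed the filter on low counts and were tested, while Bmp6, Nog and Grem1 did not pass it. The libraries came from luminal epithelial cells of adult mouse mammary glands, isolated by flow cytometry after lineage-positive cells had been excluded, with 3 libraries in each of 3 populations. HR- LP cells carry the label CD14+ PR-cre/YFP- and HR+ LP cells the label CD14+ PR-cre/YFP+. ML cells lack CD14, a surface protein that helps recognise bacterial products. The sample labels call the ML cells YFP+ and the design text of the series calls them YFP-, and the sample labels were followed. PR-cre drives a recombinase from the progesterone receptor gene, so YFP marks cells in which that driver is or was active and is not a measure of the receptor itself. The abbreviations HR, LP and ML are kept as the labels give them, and strain, hormonal state and exact age are not given there. The labels do not say whether libraries of a population came from separate animals, so the p-values measure the spread between these samples, which may be technical.

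TGF-beta ligands are secreted in a latent form, held by their propeptide and by latent TGF-beta binding proteins (LTBPs) in the matrix, and act only once they are released. Released ligands of the family bring together type I and type II receptor kinases. The type I receptor then phosphorylates receptor-regulated Smads (Smad2 and Smad3 for TGF-beta and activin; Smad1, Smad5 and Smad9 for BMPs), which enter the nucleus with Smad4. Smad6, Smad7, Bambi, Skil and the Smurf ligases restrain the signal. In the mammary gland TGF-beta is known for restraining ductal growth, and BMPs for a part in early bud development.

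Libraries held between 27219103 and 108119756 counts, and the 45 genes took between 0.285% and 0.543% of them. Levels are given as CPM, that is counts divided by library size after scaling by the trimmed mean of M values (TMM), always in the order of libraries 1, 2 and 3, and each of the 3 populations has n = 3. Epithelial keratin, Epcam and claudin genes summed to between 12885 and 17241 CPM in every library, so luminal markers were present throughout. The 6 hormone-sensing markers (Esr1, Pgr and others) summed to 200 to 472 CPM in HR- LP, 5862 to 6926 in HR+ LP and 8465 to 11057 in ML. The 6 alveolar progenitor markers (Kit, Elf5, Cd14 and others) went the other way, at 9768 to 11225, 3160 to 3620 and 72.1 to 141 CPM. The fibroblast markers other than Dcn summed to 69.1 to 117 CPM in HR- LP, 11.4 to 23.8 in HR+ LP and 18.7 to 34.7 in ML. The 8 basal markers summed to 28.1 to 66.9, 24.3 to 38.8 and 24.7 to 39.1 CPM, and the immune markers to at most 11.9 CPM. The 6 endothelial markers summed to 6.69 to 12.2, 40.6 to 63.0 and 59.5 to 80.7 CPM, carried by Vwf outside HR- LP. The 5 pericyte markers summed to 264 to 441 CPM, nearly all of it Notch3, which was not called in any comparison. On the second principal component, HR- LP replicate 3 lay far from the others of its population, at -91.6 against 15.8 and 39.5, and calls that change without it are given beside the results.

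HR+ LP differed from HR- LP in members of nearly every role: 10 of the 42 tested members were higher, 11 were lower and 21 were not called. The higher genes were Tgfb1, Bmp3, Bmp7, Inha, Bmp1, Tgfbr2, Bmpr1b, Acvr1b, Smad3 and Smad5. The lower genes were Tgfb2, Tgfb3, Inhbb, Ltbp1, Ltbp2, Ltbp3, Tgfbr1, Tgfbr3, Smad4, Bambi and Skil. A gene was called at an adjusted p below 0.05 in edgeR's quasi-likelihood test, with p-values adjusted by Benjamini-Hochberg over all 15910 tested genes. The 21 called members were 50.0% of those tested, where 29.9% of all tested genes were called, 17.2% as higher and 12.8% as lower. The median log2 fold change was -0.10 over the members and 0.01 over all tested genes. Without HR- LP replicate 3 the counts were 11 higher and 10 lower.

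In the edgeR fit of all 9 libraries, which has no replicate block, ML differed from HR+ LP in fewer members. Of the 42 tested, 8 were lower, 0 were higher and 34 were not called. The lower genes were Tgfb2, Tgfb3, Ltbp1, Ltbp2, Ltbp3, Tgfbr3, Bambi and Skil, all of which were also lower in HR+ LP than in HR- LP. Both comparisons share the HR+ LP libraries. The 8 called members were 19.0% of those tested, where 6.79% of all genes were called, 0.0943% as higher and 6.7% as lower. With so few genes called higher, a count of 0 higher members is near the background share. The median log2 fold change was -0.15 over the members and 0.01 over all tested genes. Beside the 0 higher members in edgeR, 2 had an unadjusted p below 0.05, and DESeq2 and limma voom each called 0. Same-numbered HR+ LP and ML libraries deviated together, so a fit with the replicate number as a block on these 6 libraries was also read. In that blocked edgeR fit 5 of 41 tested members were higher (Tgfb1, Inha, Bmp1, Tgfbr2 and Smad2) and 15 were lower, where 9.2% and 14.1% of 15458 genes were called.

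Between ML and HR- LP, 12 members were higher, 16 were lower and 14 were not called. The 28 called members were 66.7% of those tested, where 44.6% of all genes were called, 23.3% as higher and 21.3% as lower. The median log2 fold change was -0.32 over the members and 0.03 over all tested genes. Added to the genes called between HR+ LP and HR- LP were Acvr1 and Smad2, which were higher, and Bmp5, Gdf15, Ltbp4, Smad6 and Smad7, which were lower. This comparison shares its libraries with the other two, so its counts are not a further test of them. In bulk samples, fewer cells of a type that transcribe a gene and less RNA of that gene per cell cannot be told apart. The sums of the hormone-sensing and alveolar progenitor markers in HR+ LP also lay between those of HR- LP and ML. Whether a mixture of cells accounts for the intermediate levels of members in HR+ LP was not tested.

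**Figure D1:**
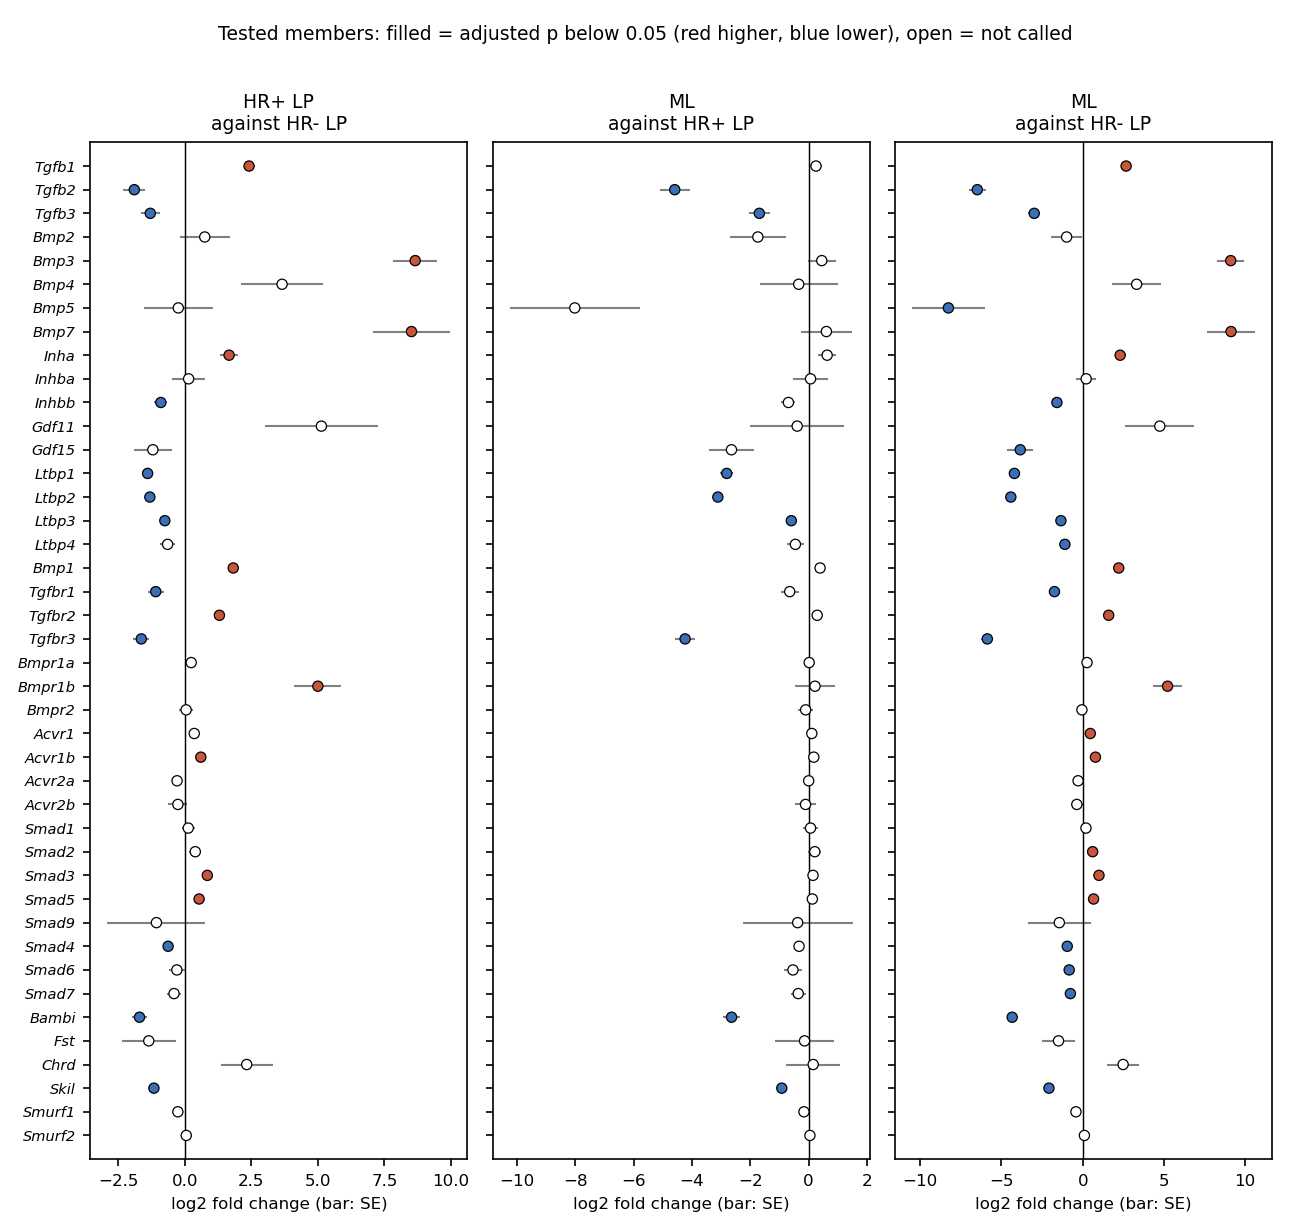
Log2 fold change (horizontal axis, bar = SE) of the 42 tested members in the 3 comparisons, with filled points for genes called at an adjusted p below 0.05 in edgeR. Red and blue points fall on both sides of 0 in both comparisons with HR- LP (10 higher and 11 lower, 12 higher and 16 lower), and only blue points are filled in ML against HR+ LP (8 lower). The sizes plotted for Bmp3, Bmp5, Bmp7 and Gdf11 rest on populations with 0 or 1 count and depend on the fit.

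The ligand genes of the TGF-beta family proper did not move as 1 group. Tgfb1 was higher and Tgfb2 and Tgfb3 were lower in HR+ LP and in ML than in HR- LP. Tgfb1 (NCBI gene 21803, chr7:25687002-25705077 in GRCm38.p6, the mm10 assembly, with this and later positions from RefSeq) encodes the isoform best known as an immune and growth regulator. Its levels were 9.97, 12.6 and 8.09 CPM in HR- LP, 61.1, 60.2 and 43.0 in HR+ LP and 69.3, 71.1 and 55.7 in ML. All 6 libraries of HR+ LP and ML lay above all 3 of HR- LP, while HR+ LP and ML overlapped each other. Tgfb1 was 5.34-fold higher in HR+ LP than in HR- LP (log2 fold change 2.42, SE 0.21, edgeR adjusted p = 1.63e-05). It was 6.38-fold higher in ML than in HR- LP (2.67, SE 0.21, edgeR adjusted p = 2.06e-06). Between ML and HR+ LP the log2 fold change was 0.26 (SE 0.20, edgeR adjusted p = 0.744), and 0.27 with an adjusted p of 0.0217 in the blocked edgeR fit.

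Tgfb2 (gene 21808, chr1:186622787-186709697), an isoform with roles in tissue morphogenesis, went the other way. It was at 26.4, 30.7 and 31.0 CPM in HR- LP, 8.19, 6.78 and 8.72 in HR+ LP and 0.569, 0.0425 and 0.424 in ML. No library of 1 population overlapped another population. Tgfb2 was 3.72-fold lower in HR+ LP than in HR- LP (log2 fold change -1.89, SE 0.41, edgeR adjusted p = 0.00529). It was a further 24.1-fold lower in ML than in HR+ LP (-4.59, SE 0.51, edgeR adjusted p = 0.000113), and -4.0 without ML replicate 2, the library with the lowest value. Against HR- LP, the log2 fold change of Tgfb2 in ML was -6.49 (SE 0.54, edgeR adjusted p = 2.91e-06).

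Tgfb3 (gene 21809, chr12:86056743-86079041), which takes part in palate fusion and in the involuting gland, was the most abundant of the 3 isoform genes in HR- LP. Its levels were 446, 378 and 226 CPM there, 178, 149 and 102 in HR+ LP and 43.5, 64.8 and 24.6 in ML. The 3 populations did not overlap, and replicate 3 was the lowest library in each of them. Tgfb3 was 2.45-fold lower in HR+ LP than in HR- LP (log2 fold change -1.29, SE 0.35, edgeR adjusted p = 0.0168), a call lost without HR+ LP replicate 2 (adjusted p = 0.0553) or 3 (0.0658). It was 3.22-fold lower in ML than in HR+ LP (-1.69, SE 0.35, edgeR adjusted p = 0.0121), a call lost without ML replicate 1 (adjusted p = 0.0548). In ML the log2 fold change of Tgfb3 against HR- LP was -2.98 (SE 0.37, edgeR adjusted p = 6.59e-05). Antisense genes cover 12.4% of its exon bases, and the library kit does not keep the strand.

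Per kilobase of gene length, the makeup of the 3 isoform transcripts differed between populations. Tgfb1 made up 4.39% ± 0.907 of their summed CPM per kb in HR- LP, 37.6% ± 2.34 in HR+ LP and 71.4% ± 7.195 in ML (SD, n = 3). Tgfb3 made up 89.7% ± 3.11, 59.9% ± 2.87 and 28.4% ± 7.32. The sum of the 3 genes was 115 ± 33.5 CPM per kb in HR- LP, 70.0 ± 15.9 in HR+ LP and 44.4 ± 9.67 in ML. The sum of HR- LP replicate 3 was 77.3 CPM per kb, within the range of HR+ LP, which ran from 52.5 to 83.5. The isoform that led thus changed from Tgfb3 in all 6 LP libraries to Tgfb1 in all 3 ML libraries.

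Promoters are shown for the ligand pair and the receptor pair that went opposite ways. Each is the 250 bases before the start listed in RefSeq for GRCm38.p6, printed 5′ to 3′ on the strand of the gene. The table of promoters held 32 of the 45 members, and it did not hold Tgfb3, Bmp2, Bmp3, Bmp7, Bmp1, Tgfbr3, Smad2, Smad4, Smad7, Nog, Bambi, Fst and Skil. Capitals mark the Smad box, CAGAC or its reverse complement GTCTG, the short motif that Smad3 and Smad4 are known to bind. The windows lie at chr7:25686752-25687001 (plus strand) for Tgfb1, chr1:186705990-186706239 (minus) for Tgfb2, chr4:47352972-47353221 (plus) for Tgfbr1 and chr9:116175364-116175613 (minus) for Tgfbr2. The Tgfb2 window lies inside the span that RefSeq gives for that gene, whose outermost start is further upstream.
Tgfb1: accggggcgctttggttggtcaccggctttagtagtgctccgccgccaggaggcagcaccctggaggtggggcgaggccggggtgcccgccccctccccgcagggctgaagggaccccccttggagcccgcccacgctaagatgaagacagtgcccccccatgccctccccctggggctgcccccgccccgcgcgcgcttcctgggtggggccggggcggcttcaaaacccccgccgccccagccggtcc
Tgfb2: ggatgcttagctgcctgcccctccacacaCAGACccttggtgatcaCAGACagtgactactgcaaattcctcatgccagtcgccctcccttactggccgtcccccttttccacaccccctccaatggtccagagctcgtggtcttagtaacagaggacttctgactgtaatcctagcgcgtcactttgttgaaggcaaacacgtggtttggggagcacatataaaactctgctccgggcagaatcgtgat
Tgfbr1: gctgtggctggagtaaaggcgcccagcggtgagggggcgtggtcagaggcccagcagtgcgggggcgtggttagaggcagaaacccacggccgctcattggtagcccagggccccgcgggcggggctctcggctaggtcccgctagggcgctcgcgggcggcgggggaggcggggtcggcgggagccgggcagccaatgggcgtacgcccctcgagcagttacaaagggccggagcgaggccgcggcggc
Tgfbr2: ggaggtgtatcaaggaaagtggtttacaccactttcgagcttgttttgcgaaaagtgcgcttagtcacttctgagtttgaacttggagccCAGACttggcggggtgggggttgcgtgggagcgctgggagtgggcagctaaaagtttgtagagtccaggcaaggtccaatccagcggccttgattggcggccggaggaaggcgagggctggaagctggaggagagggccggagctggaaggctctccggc
The Tgfb2 window held 2 Smad boxes, 221 and 204 bases before the start, and the Tgfbr2 window 1, at 160. The windows of Tgfb1 and of the outermost of 2 listed Tgfbr1 starts held 0. The window of the other listed Tgfbr1 start, not printed here, did hold a Smad box, so Tgfbr1 and Tgfbr2 do not differ in having one. The GC content was 75.2% for Tgfb1 and 74.8% for Tgfbr1, against 53.6% for Tgfb2 and 58.4% for Tgfbr2, and the median over all windows was 52.4%.

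Searched on both strands, the Smad box was in 20 of 41 windows of members (48.8%) and in 42.2% of all 32851 windows of that length. The GC-rich element GGCGCC, which BMP Smads are known to bind, was in 10 of the 41 (24.4%) and in 9.59% of all windows, the Tgfbr1 window among them. A match does not show that a factor binds there. The palindrome GTCTAGAC, which holds neither form of the Smad box (0.167% of all windows), the palindromic estrogen response element (0.0517%), the FOXA motif TGTTTAC (3.17%) and the ETS motif AGGAAGT (7.69%) were in 0 member windows.

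Of 5 tested members, the LTBP genes and Bmp1, 3 fell in all 3 comparisons and 1 was higher in both comparisons with HR- LP. The shares called were 80% in HR+ LP against HR- LP, 60% in ML against HR+ LP and 100% in ML against HR- LP. Over all genes these shares were 29.9%, 6.79% and 44.6%. Ltbp1, Ltbp2 and Ltbp3 were called lower in all 3 comparisons, and Ltbp4 in ML against HR- LP only. Ltbp1 (gene 268977, chr17:75005480-75392512) encodes the binding protein that anchors the latent complex to fibrillin fibres. It was at 450, 657 and 531 CPM in HR- LP, 196, 218 and 209 in HR+ LP and 23.4, 39.6 and 25.8 in ML, with no overlap. Its log2 fold change was -1.39 (SE 0.21, edgeR adjusted p = 0.000605) in HR+ LP against HR- LP. It was -2.81 (SE 0.22, edgeR adjusted p = 7.91e-06) in ML against HR+ LP, which is 7.002-fold lower.

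Ltbp2 (gene 16997, chr12:84783212-84876558) encodes a relative that sits on elastic fibres and is not known to bind TGF-beta itself. Its libraries were tight, at 168, 172 and 188 CPM in HR- LP, 80.2, 64.1 and 68.5 in HR+ LP and 9.14, 7.30 and 8.19 in ML. The gaps between populations were far wider than the spread within them. Ltbp2 was 2.48-fold lower in HR+ LP than in HR- LP (log2 fold change -1.31, SE 0.14, edgeR adjusted p = 5.52e-05). It was 8.65-fold lower in ML than in HR+ LP (-3.11, SE 0.15, edgeR adjusted p = 5.69e-07) and 21.5-fold lower in ML than in HR- LP (edgeR adjusted p = 1.76e-08). An antisense gene covers 9.34% of its exon bases.

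Ltbp3 (gene 16998, chr19:5740900-5758536), a binding protein needed for the secretion of latent TGF-beta in bone and tooth, was the highest member per kb in every population. It was at 1131, 1157 and 1146 CPM in HR- LP, 672, 695 and 677 in HR+ LP and 424, 476 and 457 in ML. Its fall was smaller than that of Ltbp1 and Ltbp2 in both steps, with log2 fold changes of -0.75 (SE 0.12, edgeR adjusted p = 0.000796) and -0.59 (SE 0.12, edgeR adjusted p = 0.00818). Per kb, Ltbp3 made up 70.0% ± 2.70 of the LTBP transcripts in HR- LP, 78.0% ± 0.151 in HR+ LP and 94.1% ± 0.568 in ML (SD, n = 3). The 4 LTBP genes summed to 316 ± 15.8, 168 ± 2.68 and 92.6 ± 5.81 CPM per kb. Ltbp4 was low, at 6.26, 7.59 and 8.77 CPM in HR- LP, 3.90, 5.93 and 4.64 in HR+ LP and 3.55, 2.74 and 4.29 in ML. Ltbp4 had a log2 fold change of -1.09 (SE 0.30, edgeR adjusted p = 0.0115) in ML against HR- LP.

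Fibroblast markers other than Dcn were also highest in HR- LP, at the sums given above, and their part in the difference of the LTBP genes was not tested. Between HR+ LP and ML those sums overlapped. Of the 8 fibroblast markers only Pdgfra was called (12.5%, beside 6.79% of all genes), as lower in ML (0.477 against 4.02 CPM on average, edgeR adjusted p = 0.0345). Bmp1 (gene 12153, chr14:70474555-70520716) went against the LTBP genes. Despite its name it encodes a metalloproteinase that trims procollagen and cuts LTBP1 and chordin. It was at 19.4, 20.4 and 26.3 CPM in HR- LP, 77.4, 77.8 and 77.9 in HR+ LP and 107, 96.5 and 104 in ML, and no populations overlapped. Bmp1 was 3.53-fold higher in HR+ LP than in HR- LP (log2 fold change 1.82, SE 0.14, edgeR adjusted p = 8.68e-06). It was 4.65-fold higher in ML than in HR- LP (2.22, SE 0.14, edgeR adjusted p = 5.19e-07). In ML against HR+ LP the log2 fold change was 0.40 (SE 0.14, edgeR adjusted p = 0.160), and the blocked edgeR fit called it higher (0.40, adjusted p = 0.00122).

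**Figure D2:**
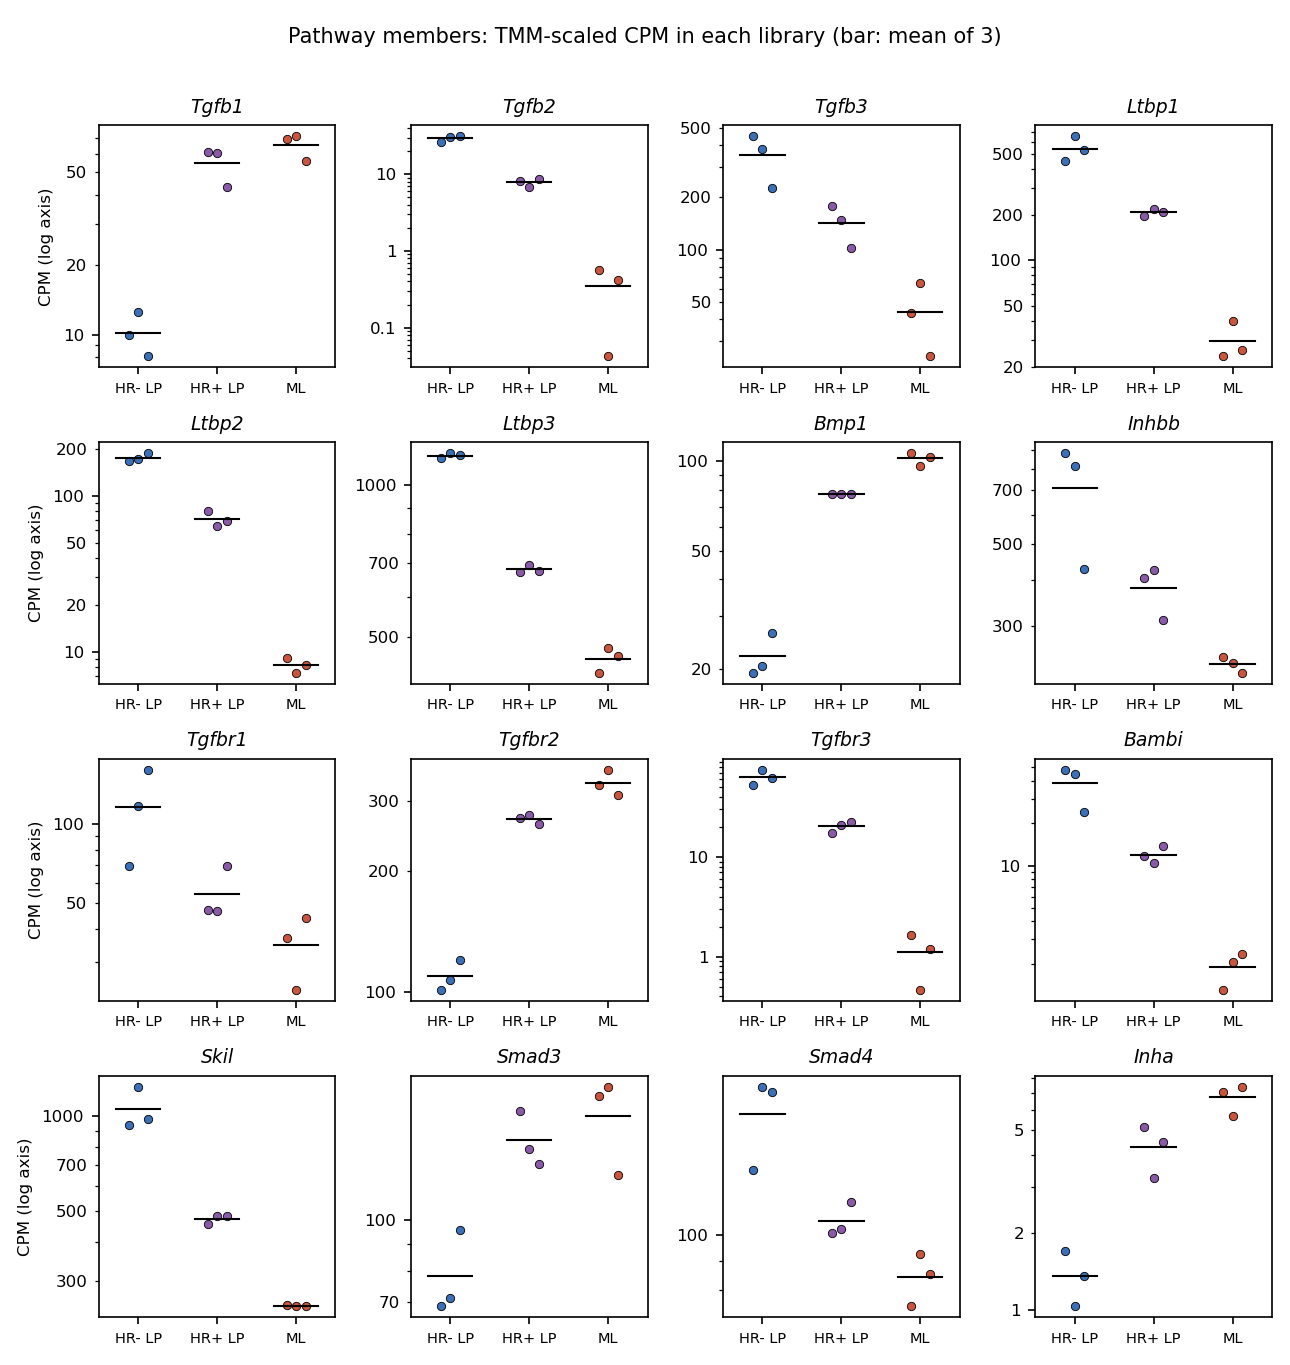
TMM-scaled CPM (log axis, each panel on its own range) of 16 members in the 9 libraries, with points for libraries and bars for the mean of 3. Tgfb2, Ltbp1, Ltbp2, Tgfbr3 and Bambi step down from HR- LP to ML with no overlap, whereas Tgfb1, Bmp1, Tgfbr2 and Inha are lowest in HR- LP.

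The 3 TGF-beta receptor genes split in the same manner as the ligands, with Tgfbr2 higher and Tgfbr1 and Tgfbr3 lower outside HR- LP. Tgfbr2 (gene 21813, chr9:116087695-116175363) encodes the type II receptor that binds the ligand first. It was at 101.4, 107 and 120 CPM in HR- LP, 272, 276 and 262 in HR+ LP and 327, 358 and 309 in ML. Every ML library was above every HR+ LP library, and all of these were above HR- LP. Tgfbr2 was 2.47-fold higher in HR+ LP than in HR- LP (log2 fold change 1.30, SE 0.12, edgeR adjusted p = 3.03e-05). It was 3.03-fold higher in ML than in HR- LP (1.60, SE 0.13, edgeR adjusted p = 2.00e-06). In ML against HR+ LP the log2 fold change was 0.30 (SE 0.12, edgeR adjusted p = 0.292), called higher in the blocked edgeR fit (adjusted p = 0.00405).

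Tgfbr1 (gene 21812, chr4:47353222-47414926) encodes the type I kinase that phosphorylates Smad2 and Smad3. Its libraries spread widely, at 69.7, 117 and 161 CPM in HR- LP, 47.1, 46.7 and 69.4 in HR+ LP and 36.9, 23.5 and 43.9 in ML. The lowest HR- LP library and the highest HR+ LP library were nearly level. Tgfbr1 was 2.13-fold lower in HR+ LP than in HR- LP (log2 fold change -1.09, SE 0.31, edgeR adjusted p = 0.0212). That call was lost without HR+ LP replicate 1 or 2 or HR- LP replicate 2 or 3 (edgeR adjusted p = 0.0797, 0.0881, 0.0502 and 0.0745). Tgfbr1 was 3.33-fold lower in ML than in HR- LP (-1.74, SE 0.31, edgeR adjusted p = 0.000993). In ML against HR+ LP its log2 fold change was -0.65 (SE 0.31, edgeR adjusted p = 0.412), called lower in the blocked edgeR fit (adjusted p = 0.00185).

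Tgfbr3 (gene 21814, chr5:107106567-107289629) encodes betaglycan, the co-receptor that presents TGF-beta2 to the signalling receptors and binds inhibin. It was at 52.5, 74.4 and 61.2 CPM in HR- LP, 17.4, 20.8 and 22.5 in HR+ LP and 1.64, 0.468 and 1.20 in ML. The steps down did not overlap. Tgfbr3 was 3.10-fold lower in HR+ LP than in HR- LP (log2 fold change -1.63, SE 0.30, edgeR adjusted p = 0.00207). It was 18.9-fold lower in ML than in HR+ LP (-4.24, SE 0.35, edgeR adjusted p = 1.31e-05). Of the 3 receptor transcripts per kb, Tgfbr2 made up 43.4% ± 5.97 in HR- LP, 81.4% ± 3.42 in HR+ LP and 91.6% ± 2.84 in ML (SD, n = 3). Their sum was 53.7 ± 10.8, 69.3 ± 1.34 and 75.6 ± 3.21 CPM per kb.

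**Figure D3:**
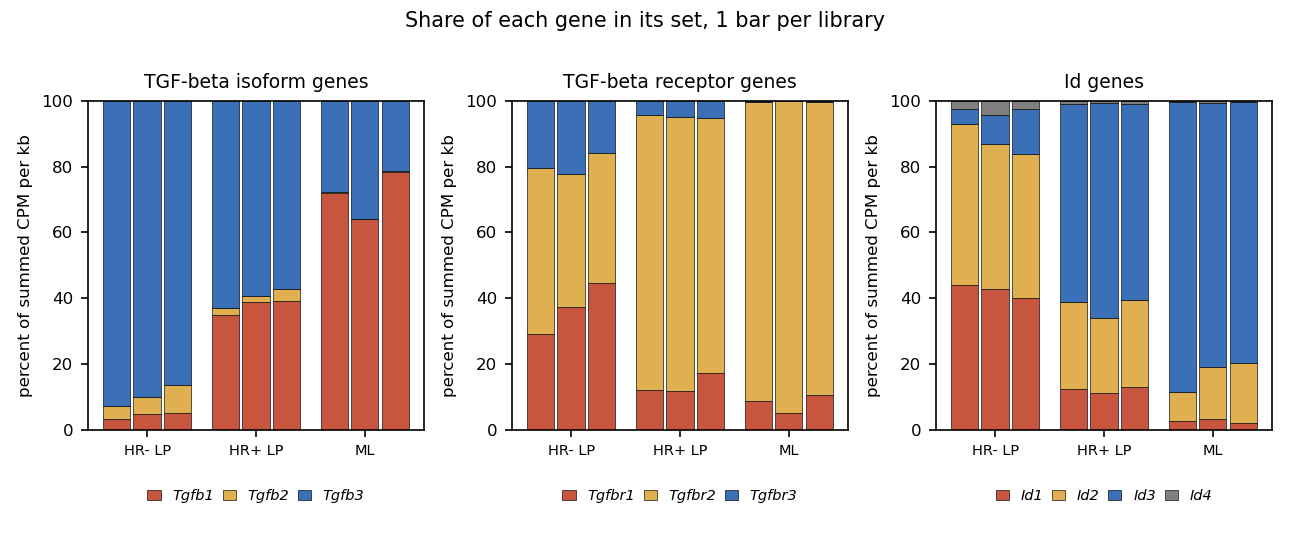
Share of each gene in the summed CPM per kb of its set (vertical axis, percent), with 1 bar per library for the 3 TGF-beta isoform genes, the 3 TGF-beta receptor genes and the 4 Id genes. The shares of Tgfb1, Tgfbr2 and Id3 are smallest in the HR- LP libraries (means of 4.39%, 43.4% and 8.92%) and largest in ML (71.4%, 91.6% and 82.6%).

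Among the receptors for BMPs and activins, the called genes were Bmpr1b and Acvr1b in HR+ LP against HR- LP, and these with Acvr1 in ML against HR- LP, all of them higher. These are 2 of 7 tested genes (28.6%, beside 29.9% of all genes) and 3 of 7 (42.9%, beside 44.6%), shares near the background. Between ML and HR+ LP, 0 of the 7 were called in edgeR. Bmpr1a (gene 12166, chr14:34411061-34503336), the type I receptor of BMP2 and BMP4, was at 217, 226 and 161 CPM in HR- LP, 257, 247 and 211 in HR+ LP and 241, 267 and 218 in ML. Its populations overlapped, and the edgeR adjusted p was 0.284, 0.989 and 0.202 in the 3 comparisons. Bmpr2 (gene 12168, chr1:59764279-59878081), the type II receptor of BMPs, was at 31.4, 68.3 and 76.0 CPM in HR- LP, 65.6, 55.7 and 60.6 in HR+ LP and 56.4, 59.8 and 53.6 in ML. HR- LP replicate 1 alone was low. The log2 fold change of Bmpr2 was 0.05 (SE 0.26, edgeR adjusted p = 0.899) in HR+ LP and -0.05 (SE 0.26, edgeR adjusted p = 0.904) in ML, both against HR- LP. Without HR- LP replicate 1 these were -0.25 (edgeR adjusted p = 0.148) and -0.35 (edgeR adjusted p = 0.0404), the second a call gained.

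Bmpr1b (gene 12167, chr3:141837135-142169585), an alternative type I BMP receptor, was near 0 in HR- LP, at 0.202, 0.0102 and 0.0358 CPM. It was at 3.66, 2.23 and 1.95 CPM in HR+ LP and 3.22, 3.98 and 1.95 in ML, so that only HR- LP stood apart. The log2 fold change was 5.0 (SE 0.88, edgeR adjusted p = 0.00165) in HR+ LP and 5.22 (SE 0.89, edgeR adjusted p = 0.000636) in ML against HR- LP. These sizes rest on few counts: they became 7.11 and 7.33 without HR- LP replicate 1, and 4.30 and 4.52 without replicate 2. Even so, Bmpr1b stayed under 1% of the transcripts of the 4 type I receptors of activin and BMP per kb, where Bmpr1a made up 61.1% ± 5.35, 57.2% ± 1.13 and 55.2% ± 1.64 (SD, n = 3). The activin type I receptor gene Acvr1b was higher in HR+ LP than in HR- LP (52.5 ± 5.01 against 34.5 ± 6.24 CPM), a call lost without HR+ LP replicate 1 or 2 or HR- LP replicate 3. Acvr1 was called in ML against HR- LP, at 60.3 ± 6.91 against 43.6 ± 6.07 CPM, and was not called without ML replicate 1 or 2 or HR- LP replicate 2. Edger fits of only these populations did not call it either, without a replicate block (adjusted p = 0.0604) or with one (0.0849). In HR+ LP against HR- LP its edgeR adjusted p was 0.0889, and limma voom called it (adjusted p = 0.0433), as did edgeR without HR- LP replicate 3 (0.0322). The type II genes Acvr2a and Acvr2b overlapped between all populations, at 21.5 to 36.3 and 2.21 to 4.37 CPM.

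BMP ligand transcripts were scarce, and those that were called higher were at or near 0 in HR- LP. Bmp3 (gene 110075, chr5:98854415-98884053), an atypical member that opposes other BMPs in bone, was at 0, 0.0102 and 0 CPM in HR- LP, 3.56, 2.57 and 2.96 in HR+ LP and 6.10, 2.04 and 4.33 in ML. It had 1 count in all HR- LP libraries against 808 in HR+ LP. The ratio of their rates was 543, with an exact 95% interval of 97.3 to 21493 that covers counting error only, and the edgeR adjusted p was 2.93e-05. Bmp7 (gene 12162, chr2:172868012-172940321), a BMP with roles in kidney and eye development, had no count in HR- LP. It was at 1.25, 0.389 and 0.581 CPM in HR+ LP and 1.64, 0.638 and 1.13 in ML. With a floor of 3 counts over the 3 HR- LP libraries, Bmp7 was at least 46.9-fold higher in HR+ LP (edgeR adjusted p = 0.00251) and at least 62.2-fold higher in ML (edgeR adjusted p = 0.000885).

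The other BMP genes were at or below 1.79 CPM in every library. Bmp2 and Bmp4 were not called in any comparison in the main edgeR fit. DESeq2 called Bmp4 higher in HR+ LP and in ML than in HR- LP (adjusted p = 0.0339 and 0.0429), where 2 of the 3 HR- LP libraries had no count. So did edgeR with the replicate block on all 9 libraries (adjusted p = 0.0449 and 0.0288). Without HR- LP replicate 1, the only library of that population with Bmp4 counts, edgeR also called it (adjusted p = 0.0138 and 0.0111). Bmp5 was at 0.807, 1.03 and 0 CPM in HR- LP, 0.553, 0.420 and 0.602 in HR+ LP and 0 in all 3 ML libraries. It was at least 32.0-fold lower in ML than in HR- LP by the same floor, although HR- LP replicate 3 also had no count (edgeR adjusted p = 0.0148). Between ML and HR+ LP the edgeR adjusted p of Bmp5 was 0.0787, with calls in the blocked fit (0.0207) and DESeq2 (0.00445), and limma voom did not call it between ML and HR- LP (0.0525). An antisense gene covers 46.7% of the exon bases of Bmp5, so its counts are uncertain. Bmp6 had 6 counts in HR+ LP and 0 elsewhere.

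Among activin, inhibin and GDF genes, Inhbb was the highest per kb and fell, while Inha was low and higher outside HR- LP. Inhbb (gene 16324, chr1:119415463-119422248) encodes the beta B chain, which makes activin B as a dimer and inhibin B with the product of Inha. It was at 883, 816 and 427 CPM in HR- LP, 405, 425 and 310 in HR+ LP and 246, 238 and 223 in ML. The populations did not overlap, but HR- LP replicate 3 lay close to HR+ LP. The log2 fold change of Inhbb was -0.90 (SE 0.24, edgeR adjusted p = 0.0164) in HR+ LP against HR- LP, a call lost without HR+ LP replicate 3 (0.0680) or HR- LP replicate 2 (0.0574). It was -1.59 (SE 0.24, edgeR adjusted p = 0.000318) in ML against HR- LP. Between ML and HR+ LP it was -0.69 (SE 0.24, edgeR adjusted p = 0.164), called lower in the blocked edgeR fit (adjusted p = 0.000119).

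Inha (gene 16322, chr1:75507077-75510366) was at 1.695, 1.03 and 1.36 CPM in HR- LP, 5.17, 3.25 and 4.51 in HR+ LP and 7.07, 5.70 and 7.39 in ML, with no overlap. The log2 fold change of Inha was 1.67 (SE 0.33, edgeR adjusted p = 0.00357) in HR+ LP and 2.31 (SE 0.34, edgeR adjusted p = 0.000233) in ML, both against HR- LP. Per kb, Inhbb remained well above Inha everywhere, at 167, 89.4 and 55.4 against 0.932, 2.95 and 4.59 CPM per kb. In ML against HR+ LP the edgeR adjusted p of Inha was 0.455, and 0.0353 in the blocked fit. Gdf15, a stress-responsive ligand, was at 7.69, 4.23 and 4.79 CPM in HR- LP, 2.04, 2.43 and 2.81 in HR+ LP and 0, 0.511 and 0.612 in ML. Its difference passed in ML against HR- LP (log2 fold change -3.84, SE 0.80, edgeR adjusted p = 0.00253) and, in the blocked edgeR fit, in ML against HR+ LP (adjusted p = 0.0169), where DESeq2 (0.00168) and edgeR without ML replicate 1 (0.0221) also called it. In HR+ LP against HR- LP the edgeR adjusted p of Gdf15 was 0.235, while limma voom (adjusted p = 0.0395) and an edgeR fit of only these populations (0.0496) called it lower. Inhba (0.626 to 4.65 CPM) and Gdf11 (at most 0.482 CPM) were not called in any comparison.

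The receptor-regulated Smad genes were either higher outside HR- LP or not called, and the common Smad4 was lower. Smad3 (gene 17127, chr9:63646766-63757994) was at 68.6, 71.2 and 95.5 CPM in HR- LP, 160, 136 and 127 in HR+ LP and 171, 178 and 122 in ML. HR+ LP and ML overlapped, and both lay above HR- LP. Smad3 was 1.80-fold higher in HR+ LP (log2 fold change 0.85, SE 0.19, edgeR adjusted p = 0.00588) and 2.003-fold higher in ML (1.002, SE 0.19, edgeR adjusted p = 0.00118) than in HR- LP. Smad2, its partner downstream of TGF-beta and activin, was at 42.9, 46.1 and 85.5 CPM in HR- LP, 72.1, 72.9 and 84.2 in HR+ LP and 85.0, 87.6 and 93.5 in ML. HR- LP replicate 3 was as high as the other populations. In HR+ LP against HR- LP the log2 fold change of Smad2 was 0.40 (SE 0.23, edgeR adjusted p = 0.225), and 0.78 (edgeR adjusted p = 0.00163) without that library. In ML against HR- LP it was 0.61 (SE 0.23, edgeR adjusted p = 0.0498), a call lost on leaving out any 1 ML library or HR- LP replicate 1 or 2 (adjusted p = 0.0858 to 0.155). DESeq2 (adjusted p = 0.0520), RLE size factors in edgeR (0.0728), a stricter filter (0.0629) and a fit of only these populations (0.0970) did not call it either. The blocked edgeR fit called Smad2 higher in ML than in HR+ LP (log2 fold change 0.22, adjusted p = 0.0276).

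Smad4 was at 130, 182 and 178 CPM in HR- LP, 100.98, 102 and 114 in HR+ LP and 75.0, 92.8 and 85.5 in ML. The populations did not overlap. The log2 fold change of Smad4 was -0.63 (SE 0.15, edgeR adjusted p = 0.0109) in HR+ LP, lost without HR+ LP replicate 2 (adjusted p = 0.0507), and -0.95 (SE 0.15, edgeR adjusted p = 0.000481) in ML, both against HR- LP. In the blocked edgeR fit it was also lower in ML than in HR+ LP (-0.32, adjusted p = 0.00919). Of the BMP-regulated Smads, Smad5 was higher in HR+ LP (133 ± 11.9 CPM) and in ML (145 ± 20.9) than in HR- LP (91.3 ± 6.59), the first of these lost without HR+ LP replicate 3. Smad1 (19.5 to 39.2 CPM) overlapped between all populations, and Smad9 was at most 0.394 CPM. The inhibitory Smad6 and Smad7, which TGF-beta and BMP signals are known to induce, were called lower in ML than in HR- LP only. Smad6 was at 13.7 ± 6.04 CPM in HR- LP and 7.71 ± 1.04 in ML, and Smad7 at 84.6 ± 30.5 and 50.0 ± 11.7. Both calls were close to the threshold (edgeR adjusted p = 0.0445 and 0.0349). Smad6 lost its call without any ML library or without HR- LP replicate 1 or 2, and Smad7 without ML replicate 1 or 2 or HR- LP replicate 3. Both were also not called with library totals alone (edgeR adjusted p = 0.109 and 0.0707) or in a fit of only these populations (0.0953 and 0.0557). The blocked edgeR fit also called both lower in ML than in HR+ LP (log2 fold change -0.54, adjusted p = 0.0301 for Smad6 and -0.36, adjusted p = 0.00532 for Smad7).

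Of the antagonists and nuclear regulators, Bambi and Skil fell in every comparison. Bambi encodes a pseudoreceptor that lacks the kinase domain and blocks type I receptors. It was at 48.0, 44.6 and 23.9 CPM in HR- LP, 11.7, 10.4 and 13.8 in HR+ LP and 1.31, 2.04 and 2.35 in ML. No populations overlapped, and HR- LP replicate 3 was low within its own. Bambi was 3.25-fold lower in HR+ LP than in HR- LP (log2 fold change -1.70, SE 0.28, edgeR adjusted p = 0.00122). It was 6.24-fold lower in ML than in HR+ LP (-2.64, SE 0.31, edgeR adjusted p = 0.000154).

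Skil (gene 20482, chr3:31095058-31122923) encodes SnoN, a corepressor that binds Smads and is itself a known TGF-beta target. It was at 940, 1242 and 983 CPM in HR- LP, 454, 482 and 482 in HR+ LP and 252, 249 and 250 in ML. The steps were even, and the ML libraries differed by less than 3 CPM. Skil was 2.23-fold lower in HR+ LP than in HR- LP (log2 fold change -1.16, SE 0.14, edgeR adjusted p = 0.000133). It was 1.89-fold lower in ML than in HR+ LP (-0.92, SE 0.14, edgeR adjusted p = 0.00115). The ubiquitin ligase genes Smurf1 (89.5 to 161 CPM) and Smurf2 (94.3 to 118 CPM) overlapped between populations and were not called in edgeR, although without HR- LP replicate 1 Smurf1 was called lower in HR+ LP and in ML than in HR- LP (adjusted p = 0.0225 and 0.00330). The 4 extracellular antagonist genes among the members had few counts. Fst was at most 2.15 CPM, Nog had 2 counts in all and Grem1 had 0. Chrd was at most 1.81 CPM and was not called in the main edgeR fit. DESeq2 called Chrd higher in HR+ LP and in ML than in HR- LP (adjusted p = 0.0262 and 0.0109), as did edgeR without HR- LP replicate 2 (0.0310 and 0.0171). In ML against HR- LP it was also called by limma voom (adjusted p = 0.0496) and by edgeR with library totals (0.0447) or a stricter filter (0.0381).

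Ranked by CPM per kb, 3 members led in HR- LP: Ltbp3 (221), Inhbb (167) and Skil (157), followed by Tgfb3 (104). In HR+ LP the same 3 genes led, at 131, 89.4 and 70.4 CPM per kb, with Tgfbr2 (56.4) next. In ML Tgfbr2 (69.2) was second to Ltbp3 (87.1), ahead of Inhbb (55.4), Bmpr1a (45.4) and Skil (37.2). Tgfb1 stood at 4.87, 26.1 and 31.2 CPM per kb in the 3 populations.

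The wider pathway was read from 6 further lists of 93 genes, of which 72 were tested. These lists were also chosen with earlier results of these data known. Of these, 10 were higher and 26 lower in HR+ LP than in HR- LP (36 of 72, 50.0%, beside 29.9% of all genes). In ML against HR+ LP, 17 were lower and 0 were higher in edgeR. In the higher direction 0 had an unadjusted p below 0.05, and DESeq2 and limma voom each called 0. The 17 were 23.6% of the 72, where 6.7% of all genes were lower. The blocked edgeR fit called 5 genes of these lists higher and more than that lower, where 9.2% and 14.1% of all genes were called. In ML against HR- LP, 12 were higher and 34 lower (63.9%, beside 44.6% of all genes called, 23.3% as higher and 21.3% as lower). Leaving out 1 library, the count of 26 lower genes in HR+ LP ranged from 13 (without HR+ LP replicate 2) to 26, with 16 without HR+ LP replicate 1. The 17 lower genes in ML became 11 without ML replicate 1, ML replicate 2 or HR+ LP replicate 3.

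Of 6 tested further ligand genes, Bmp8b was called higher in HR+ LP and in ML than in HR- LP, at 0.448 to 2.66 CPM in those libraries against 1 count in all of HR- LP. Gdf5, at most 0.896 CPM, was called lower in ML than in HR+ LP and HR- LP (edgeR adjusted p = 0.0486 and 0.0118). The first of these calls was lost on leaving out any 1 library compared (adjusted p = 0.0631 to 0.238). The shares called were 16.7% in HR+ LP against HR- LP, 16.7% in ML against HR+ LP and 33.3% in ML against HR- LP. Over all genes they were 29.9%, 6.79% and 44.6%. Of the other receptors and co-receptors, Eng stood out by its size, and it was chosen by the rule that names up to 3 genes of each list by their p. Eng encodes endoglin, a co-receptor of TGF-beta and BMP9 best known in blood vessels. It was at 3.59, 9.32 and 3.04 CPM in HR- LP, 119, 119 and 99.3 in HR+ LP and 158, 150 and 130 in ML, with no overlap. Eng was 20.6-fold higher in HR+ LP than in HR- LP (log2 fold change 4.36, SE 0.37, edgeR adjusted p = 1.62e-05), and the log2 value was 5.08 without HR- LP replicate 2. Acvrl1, the type I receptor that works with endoglin, went the other way, at 36.6, 40.0 and 36.0, then 19.0, 18.5 and 17.3, then 11.6, 10.02 and 8.48 CPM. Its log2 fold change was -1.04 (edgeR adjusted p = 0.000679) in HR+ LP against HR- LP and -0.87 (edgeR adjusted p = 0.00505) in ML against HR+ LP. Of the endothelial markers, Vwf was also higher in HR+ LP and ML (34.6 to 75.0 CPM) than in HR- LP (1.43 to 5.41), whereas Pecam1 was at 1.77 to 3.83 CPM, and Cdh5 and Kdr were at or below 1.63 CPM, in all libraries. In the blocked edgeR fit Eng was also higher in ML than in HR+ LP (log2 fold change 0.39, adjusted p = 0.000823).

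Of 14 genes for latency and activation, 2 were higher and 5 lower in HR+ LP than in HR- LP (50.0%, beside 29.9% of all genes). In ML, 0 were higher and 3 lower against HR+ LP (21.4%, beside 6.79%), and 2 higher and 5 lower against HR- LP (50.0%, beside 44.6%). Thbs1 encodes thrombospondin 1, which can release TGF-beta from its latent complex. It was at 1096, 1094 and 1231 CPM in HR- LP, 482, 283 and 463 in HR+ LP and 20.3, 8.66 and 31.4 in ML. Thbs1 was 2.79-fold lower in HR+ LP than in HR- LP (log2 fold change -1.48, SE 0.37, edgeR adjusted p = 0.0116), a call lost without HR+ LP replicate 2 (adjusted p = 0.0561), and 20.4-fold lower in ML than in HR+ LP (edgeR adjusted p = 3.61e-05). Itgb8, a chain of an integrin that activates latent TGF-beta, was at 48.9, 74.3 and 59.5 CPM in HR- LP, 27.5, 18.3 and 21.4 in HR+ LP and 0.201, 0.106 and 0.777 in ML. Its log2 fold change in ML against HR+ LP was -5.92 (SE 0.49, edgeR adjusted p = 1.30e-05), and -7.25 without ML replicate 3. Fbn2, which encodes a fibrillin, fell likewise, from 7.57 to 16.4 CPM in HR- LP to 2.61 to 3.31 in HR+ LP and at most 0.306 in ML, although limma voom did not call the step from HR+ LP to ML (adjusted p = 0.0826).

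Dcn, which encodes the TGF-beta-binding proteoglycan decorin and is also a fibroblast marker, was higher outside HR- LP. It was at 6.48, 10.3 and 10.02 CPM in HR- LP, 252, 49.9 and 83.3 in HR+ LP and 300, 72.7 and 85.5 in ML. Replicate 1 was several times above the other libraries in both populations where Dcn was high. In HR+ LP against HR- LP the log2 fold change of Dcn was 3.85 (SE 0.69, edgeR adjusted p = 0.00184), and 2.90 without HR+ LP replicate 1. Between ML and HR+ LP the blocked edgeR fit called Dcn higher (0.28, adjusted p = 0.0430). Of the 8 fibroblast markers, 6 were lower in HR+ LP than in HR- LP, among them Col1a1, at 3.61, 2.55 and 4.43 CPM against 8.36, 11.04 and 23.7. With Dcn as the 1 higher, 87.5% of these markers were called, beside 29.9% of all genes, 12.8% as lower.

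The extracellular antagonist list had 1 gene higher and 3 lower of 10 tested in HR+ LP against HR- LP (40.0%, beside 29.9% of all genes). Vasn, which encodes vasorin, a TGF-beta trap, was at 252 ± 11.2 CPM in HR- LP, 145 ± 33.8 in HR+ LP and 103 ± 26.8 in ML (SD, n = 3), and its call between the LP populations was lost without HR+ LP replicate 1 or 2. The blocked edgeR fit called Vasn lower in ML than in HR+ LP (log2 fold change -0.50, adjusted p = 0.000371). Sostdc1, a secreted BMP antagonist, was at 17.7, 12.2 and 4.47 CPM in HR- LP, 3.95, 3.63 and 2.21 in HR+ LP and at most 0.188 in ML. It was lower in all 3 comparisons (edgeR adjusted p = 0.0468, 0.00153 and 5.30e-05 in HR+ LP against HR- LP, ML against HR+ LP and ML against HR- LP), but limma voom did not call it between ML and HR+ LP (adjusted p = 0.152). Nbl1, a BMP antagonist of the same family, was higher in both comparisons with HR- LP, at 0.866 ± 0.372, 2.63 ± 0.128 and 3.998 ± 0.281 CPM, but the call in HR+ LP was lost in an edgeR fit of only the LP libraries (adjusted p = 0.0595). Of 19 tested intracellular regulators, 2 were higher and 8 lower in HR+ LP than in HR- LP (52.6%, beside 29.9% of all genes). Nedd4l, a ligase that marks Smad2 and Smad3 for degradation, was at 410 ± 78.3, 213 ± 32.8 and 121 ± 21.7 CPM. Ldlrad4, which keeps Smad2 and Smad3 from the receptor, was at 75.7 ± 26.7, 32.2 ± 4.75 and 8.08 ± 3.39 CPM. Both were called lower in all 3 comparisons, although Nedd4l lost its call between ML and HR+ LP without ML replicate 1 or 2 or HR+ LP replicate 2 or 3. Fkbp1a, whose product holds type I receptors inactive, was higher in HR+ LP (125 ± 10.4 CPM) and ML (137 ± 14.3) than in HR- LP (74.8 ± 15.0).

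Known target genes of the pathway did not move as 1 block. Of 16 tested, 3 were higher and 9 lower in HR+ LP than in HR- LP (75.0%, beside 29.9% of all genes). Against HR+ LP, ML had 0 higher and 7 lower (43.8%, beside 6.79%), and against HR- LP it had 5 higher and 9 lower (87.5%, beside 44.6%). Id1, an inhibitor of helix-loop-helix factors and a classic BMP target, was at 59.4, 39.6 and 34.3 CPM in HR- LP, 12.03, 10.1 and 12.9 in HR+ LP and 2.58, 2.62 and 1.81 in ML. It was 3.80-fold lower in HR+ LP than in HR- LP (log2 fold change -1.93, SE 0.24, edgeR adjusted p = 0.000167) and 5.01-fold lower in ML than in HR+ LP (-2.33, SE 0.25, edgeR adjusted p = 8.80e-05). Id3, its close relative and also a BMP target, was at 6.38, 8.53 and 12.02 CPM in HR- LP, 61.0, 61.6 and 62.3 in HR+ LP and 89.6, 65.1 and 72.8 in ML. Id3 was 6.91-fold higher in HR+ LP than in HR- LP (2.79, SE 0.22, edgeR adjusted p = 1.02e-05). Per kb, Id1 made up 42.3% ± 2.01, 12.2% ± 0.873 and 2.70% ± 0.656 of the transcripts of the 4 Id genes, and Id3 8.92% ± 4.47, 61.6% ± 3.21 and 82.6% ± 4.88 (SD, n = 3). The sums of the 4 Id genes overlapped, at 115 ± 29.2, 105 ± 5.63 and 96.0 ± 10.8 CPM per kb.

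Msx2, a homeobox gene induced by BMPs, went with Id3. It was at 1.68, 3.78 and 2.90 CPM in HR- LP, 33.4, 36.8 and 39.8 in HR+ LP and 43.4, 44.7 and 48.7 in ML, and was 13.1-fold higher in HR+ LP than in HR- LP (log2 fold change 3.71, SE 0.26, edgeR adjusted p = 5.48e-06). Hey1, a repressor induced by Notch and by BMP9, went with Id1, at 407, 280 and 148, then 107, 87.3 and 51.6, then 2.95, 0.936 and 1.77 CPM. It was 44.8-fold lower in ML than in HR+ LP (log2 fold change -5.48, SE 0.51, edgeR adjusted p = 2.75e-05). Ccn2, which encodes connective tissue growth factor, a TGF-beta target, was at 58.5, 27.9 and 25.7 CPM in HR- LP, 17.4, 9.57 and 13.98 in HR+ LP and 1.84, 0.766 and 1.37 in ML. It was 10.5-fold lower in ML than in HR+ LP (log2 fold change -3.39, SE 0.42, edgeR adjusted p = 0.000270). In the blocked edgeR fit Id3 and Msx2 were also higher in ML than in HR+ LP, by log2 fold changes of 0.29 (adjusted p = 0.0433) and 0.32 (adjusted p = 0.0127).

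**Figure D4:**
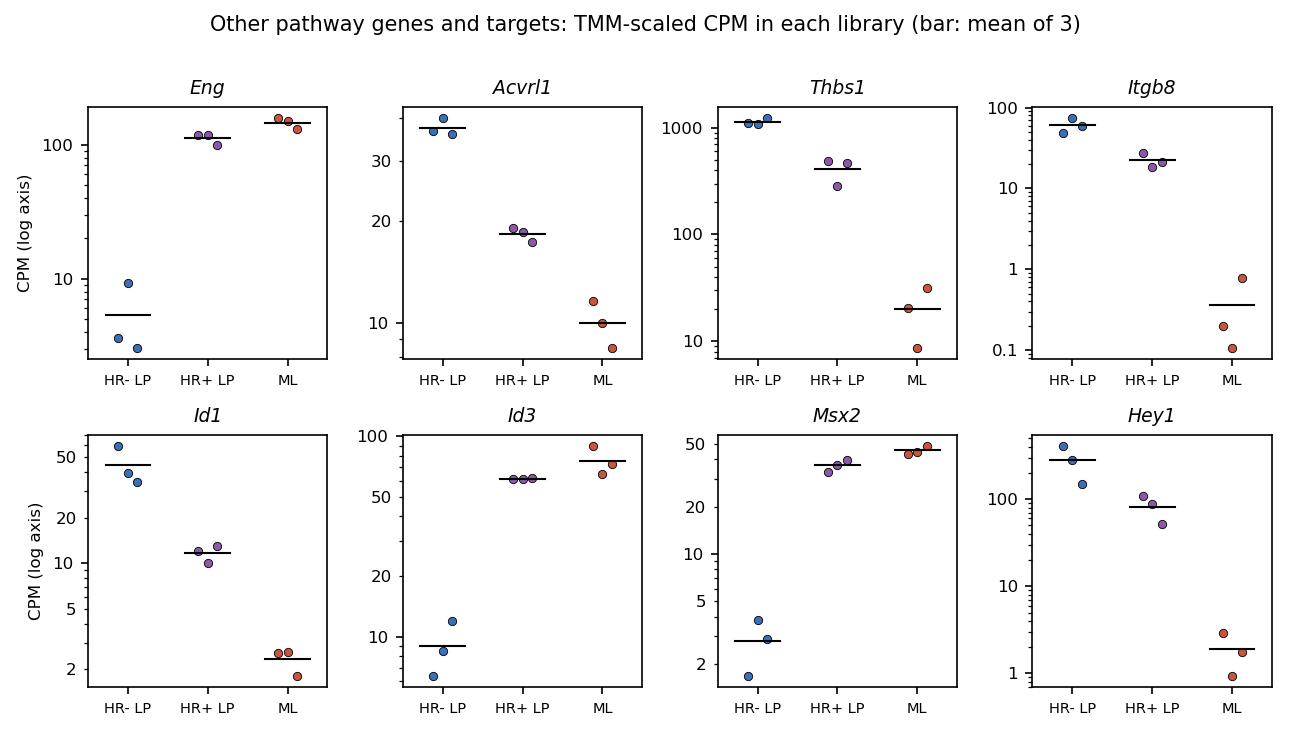
TMM-scaled CPM (log axis, each panel on its own range) of 8 further pathway and target genes in the 9 libraries, with points for libraries and bars for the mean of 3. Eng, Id3 and Msx2 are lowest in HR- LP, while Acvrl1, Thbs1, Itgb8, Id1 and Hey1 step down from HR- LP to ML, with no library of 1 population overlapping another.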

How the data were processed

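RNA from 9 libraries of 3 sorted populations was sequenced with the TruSeq RNA v2 kit, which keeps no strand, per the labels' protocols. The deposited values are raw read counts for each gene, as the authors made them, tied to featureCounts and mm10 in the submitters' processing notes. For aligner, annotation and versions the entry is: not given in the sources used here. The table of the series and the sample files were identical. Of 27179 NCBI gene IDs, 25275 (93.0%) matched a RefSeq symbol of GRCm38.p6, and the other 1904 (0.955% to 1.67% of a library's counts) stayed in the tests.

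Genes were filtered with filterByExpr, scaled by TMM and compared with edgeR 4.0.16 (glmQLFit, glmQLFTest) in R 4.3.3 in 1 fit of the 9 libraries without covariates. Benjamini-Hochberg adjustment ran over 15910 genes, with calls at 0.05. The 45 members and all lists were chosen with earlier results of these data known. Full values are given for 20 members that were called with an absolute log2 fold change over 1 and a mean CPM over 1, and for Bmpr1a, Bmpr2, Smad2 and Smad4 whatever their result. Genes of each further list were picked as up to 3 called genes per comparison, by smallest p. Of those picked, Rgma, Amhr2, Fstl1, Zfyve9 and Wwp1, each called lower, are not described above. Lengths for values per kb come from the deposited table. Floors are 3 counts over a population, and the 95% intervals are exact (Clopper-Pearson). Intervals and floors cover counting error only.

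Deviations from the population mean correlated between same-numbered ML and HR+ LP libraries, at 0.183, 0.121 and 0.189. Different-numbered ones were at -0.142 to -0.050. For each gene the deviations of a population cancel out over its 3 libraries, so positive same-numbered values push different-numbered ones down. The different-numbered values are thus not separate evidence of pairing. For HR+ LP with HR- LP the same-numbered values were 0.133, 0.039 and 0.147, against -0.146 to 0.019. For ML with HR- LP they were 0.053, 0.025 and 0.085, against -0.082 to 0.018. Numbers were taken to pair, from the data alone, only where all same-numbered values were over 0.1, as for ML and HR+ LP. With HR- LP, too, same-numbered values lay above different-numbered ones. The main fit may thus leave out a replicate effect shared with HR- LP. Other scalings, filters, DESeq2 1.42.0, limma 3.58.1 voom, fits of only the populations compared, replicate blocks and leaving out each library were tried. The procedure was tested on simulated data.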

Additional observations from a re-analysis of the deposited data

How the results depend on the processing

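Depth of at least 27219103 counts per library leaves counting error small above a few CPM, and members under about 1 CPM rest on few counts. The counts of members called in HR+ LP against HR- LP and in ML against HR- LP stayed within 1.5 times of the values given under all 16 alternatives each. Leaving out 1 library, they ranged from 9 to 11 higher and 8 to 12 lower, and from 10 to 12 higher and 14 to 17 lower. All called members kept their sign under RLE, upper quartile and library total scaling, of which library totals moved the median of all genes by 0.110 and 0.163 in these comparisons.

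In ML against HR+ LP, leaving out 1 library gave 0 higher and 8 lower members. With only the compared libraries 1 member was higher. The replicate block on those libraries gave 5 higher and 15 lower members, 5 higher genes of the other lists, and 1422 higher and 2182 lower genes in all. Over all genes, the 15 higher became 38 with upper quartile scaling, 30 with library totals, 88 with DESeq2, 50 with limma voom, 216 with only the compared libraries, 71 with the replicate block on all 9 libraries and 4 to 8 without 1 library. Lower genes of the other lists ranged from 11 to 15 without 1 library. In HR+ LP against HR- LP, leaving out 1 library gave 1211 to 2290 lower genes in all and 13 to 26 of the other lists. In the comparisons with HR- LP, whose numbers were not taken to pair, the block moved no count of members by over 1.5 times. The causes were not tested.

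Over all named genes and settings, 600, 548 and 633 log2 fold changes kept their direction and their side of the threshold in HR+ LP against HR- LP, ML against HR+ LP and ML against HR- LP, while 16, 24 and 11 lost a call and 3, 14 and 2 gained one. Log2 fold changes near 0 changed sign in 3 genes, only in comparisons where the main test did not call the gene. Bmpr2 in HR+ LP against HR- LP was -0.01 with RLE size factors, DESeq2 or without HR+ LP replicate 1, and between -0.25 (without HR- LP replicate 1) and 0.28 (without replicate 3) on leaving out 1 library. Bmpr2 in ML against HR- LP was 0.13 with library totals, 0.07 with limma voom, 0.00 with the block, 0.04 with the block on the compared libraries and between -0.35 and 0.18 on leaving out 1 library, positive without HR- LP replicate 2 (0.08) or 3 (0.18). Bmpr1a in ML against HR+ LP was -0.05 without ML replicate 2 and -0.06 without HR+ LP replicate 3, and its other values without 1 library reached 0.09. Bmpr1b in that comparison was between -0.02 (without ML replicate 2) and 0.55.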
